A study of Mus musculus with 18 samples.

Results

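The mitochondrial genome transcripts were the rows of the deposited gene table whose symbol begins with mt-. They made up 37 of 55450 rows and comprised 13 protein-coding genes, 2 rRNA genes and 22 tRNA genes, all on chrM of the mouse genome build mm10. The mRNA genes lie between *mt-Nd1* (chrM:2751-3707) and *mt-Cytb* (chrM:14145-15288), all but *mt-Nd6* on the plus strand, and both rRNA genes precede them (*mt-Rnr1*, chrM:70-1024, and *mt-Rnr2*, chrM:1094-2675). RNA-Seq covered the murine lung cancer line ED1SQ4, which was derived from a tumor of a transgenic mouse that overexpresses cyclin E. The cells had received vehicle, or CYC065 at 0.5 μM, for 72 hours in both cases, and CYC065 inhibits the cyclin-dependent kinases CDK2 and CDK9. Each treatment was profiled in unsorted cells and in diploid (2N) and polyploid (4N) populations sorted by a live-cell DNA stain, which gave 6 conditions. A gate on DNA content does not separate polyploid cells from diploid cells that have copied their DNA and not yet divided, so the 4N populations may hold both.

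The mitochondrial genome is a small circular DNA that is present in many copies per cell. Both of its strands are transcribed into long precursor RNAs, and the tRNAs lying between the other genes are cut out of the precursors, which releases the mRNAs and rRNAs. Its mRNAs encode core subunits of respiratory complexes I, III and IV and of the ATP synthase, while the proteins that transcribe and process these RNAs come from nuclear genes. Nuclear chromosomes carry inserted copies of mitochondrial DNA, and short reads cannot always be told apart between a copy and its source.

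The 3 columns of a condition are named as numbered parts of 1 library and were summed, so each condition has 1 library and spread between cultures was not measured. No test between conditions was possible for this reason. Summed totals ran from 54750203 to 62795507 counts per library. A ratio compares counts per 1000000 (CPM) after TMM scaling, on the log2 scale with a pseudocount of 0.5, for genes that reach 30 summed counts in 1 or both libraries compared, and a ratio beyond 2-fold is named as such. Its standard error (SE) is the larger of the counting error and the error over the 3 parts for mitochondrial genes and their copies. For other nuclear genes the SE is the counting error alone. Neither error covers differences between cultures. In bulk RNA, a higher level of mitochondrial RNA per cell, a different share of cells and a lower level of other RNA cannot be told apart. The epithelial and alveolar marker genes *Epcam*, *Sftpc* and *Nkx2-1* had 0 to 1 counts in each library, *Cdh1* had 9 to 15, *Krt8* had 3 to 43 and *Krt18* had 4 to 20. The leukocyte marker *Ptprc* had 0 to 1 counts and the endothelial marker *Pecam1* had 10 to 20. The mesenchymal and fibroblast genes *Vim*, *Col1a1* and *Pdgfra* were at 19093 counts or more in each library.

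Fractional counts, which RSEM gives when it divides a read between genes, separated the protein-coding genes into 2 sets. The 7 genes *mt-Co1*, *mt-Co2*, *mt-Atp6*, *mt-Co3*, *mt-Nd3*, *mt-Nd4* and *mt-Nd4l* had a fractional value in at least 1 column. The other 6 protein-coding genes (*mt-Nd1*, *mt-Nd2*, *mt-Atp8*, *mt-Nd5*, *mt-Nd6* and *mt-Cytb*), both rRNA genes and all 22 tRNA genes held whole numbers only. The 7 fractional genes were exactly those that share 20% or more of their 50-base words with genes annotated outside the mitochondrial genome. All words of *mt-Co2* recur there, as do 99.9% of those of *mt-Co3*, 99.5% of *mt-Atp6*, 98.8% of *mt-Nd4l*, 98.0% of *mt-Nd3*, 62.2% of *mt-Nd4* and 51.1% of *mt-Co1*. For the 6 genes with whole counts the share did not exceed 8.19% (*mt-Nd2*).

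The genes outside the mitochondrial genome that each hold at least 20% of a member's words are 9 unprocessed pseudogenes, called its nuclear copies here. Of them, 7 lie side by side on the minus strand at chr1:24611535-24616197, each matching 1 of the 7 genes, and 2 on the minus strand at chr2:22587291-22589647 match *mt-Co1* (*Gm13340*) and *mt-Co2* (*Gm13341*). The chromosome 1 copies of *mt-Co2* (*Gm28661*, 681 bases), *mt-Atp6* (*Gm10925*, 678), *mt-Co3* (*Gm28437*, 783), *mt-Nd4l* (*Gm10222*, 294) and *mt-Nd4* (*Gm28439*, 876) had no difference from the mitochondrial gene over their whole length. The copy of *mt-Nd3* (*Gm28438*) matched at 344 of 345 bases, and the copy of *mt-Co1* (*Gm29216*), which holds its last 492 bases, matched at 486. The chromosome 2 copies differed more, with 1508 of 1545 bases of *Gm13340* and 656 of 672 aligned bases of *Gm13341* identical. *Gm13340* was the only one of the 9 with under 30 counts in every library.

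The sequences below, from the GENCODE M21 transcripts on mm10, show how little separates gene and copy, with each difference in capitals. The first pair is the start of *mt-Nd3* (chrM:9459-9518, plus strand) and of *Gm28438* (chr1:24613060-24613119, minus strand), which differ by T3C, counted from 1 at the first base of the mitochondrial gene and with its base first. The second pair is the end of *mt-Co3* (chrM:9331-9390, plus strand) and of *Gm28437* (chr1:24613189-24613247, minus strand), where the gene has a single base more. The third pair is the stretch of *mt-Co1* that holds all of its 6 differences from *Gm29216* (chrM:6381-6440, plus strand, and chr1:24616138-24616197, minus strand), which are T1056A, C1057T, A1059G, A1060G, C1062A and A1066T.
mt-Nd3: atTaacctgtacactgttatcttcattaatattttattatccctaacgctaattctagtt
Gm28438: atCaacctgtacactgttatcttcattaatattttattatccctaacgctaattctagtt
mt-Co3: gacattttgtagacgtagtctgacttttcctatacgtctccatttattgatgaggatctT
Gm28437: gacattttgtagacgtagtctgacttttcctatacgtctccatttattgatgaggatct
mt-Co1: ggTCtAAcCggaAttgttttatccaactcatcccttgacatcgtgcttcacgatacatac
Gm29216: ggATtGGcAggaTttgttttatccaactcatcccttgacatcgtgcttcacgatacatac

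The rows of 5 genes held only a minor share of the reads that fit gene or copy. Of the summed counts of gene and copies, the mitochondrial row held 3.06% to 6.95% across the 6 libraries for *mt-Co2*, 4.03% to 7.60% for *mt-Atp6*, 10.2% to 19.1% for *mt-Co3*, 25.0% to 33.9% for *mt-Nd4l* and 19.9% to 38.0% for *mt-Nd3*. In contrast, it held 92.3% to 95.2% for *mt-Co1* and 99.91% to 99.96% for *mt-Nd4*, the genes with the longest stretches outside their chromosome 1 copies. The share also moved between parts of the same library. In the 3 parts of the vehicle 2N library, the row of *mt-Co3* held 690.0, 2535 and 3139 counts, while gene and copy together held 20672, 20796 and 20682. The row of *mt-Co2* was listed at 0 in the first of these parts and held 386 and 424 in the others, while gene and copies together held 8883, 8752 and 8824. The rows of both genes thus differed between parts of a library where the sums stayed close.

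**Figure D1:**
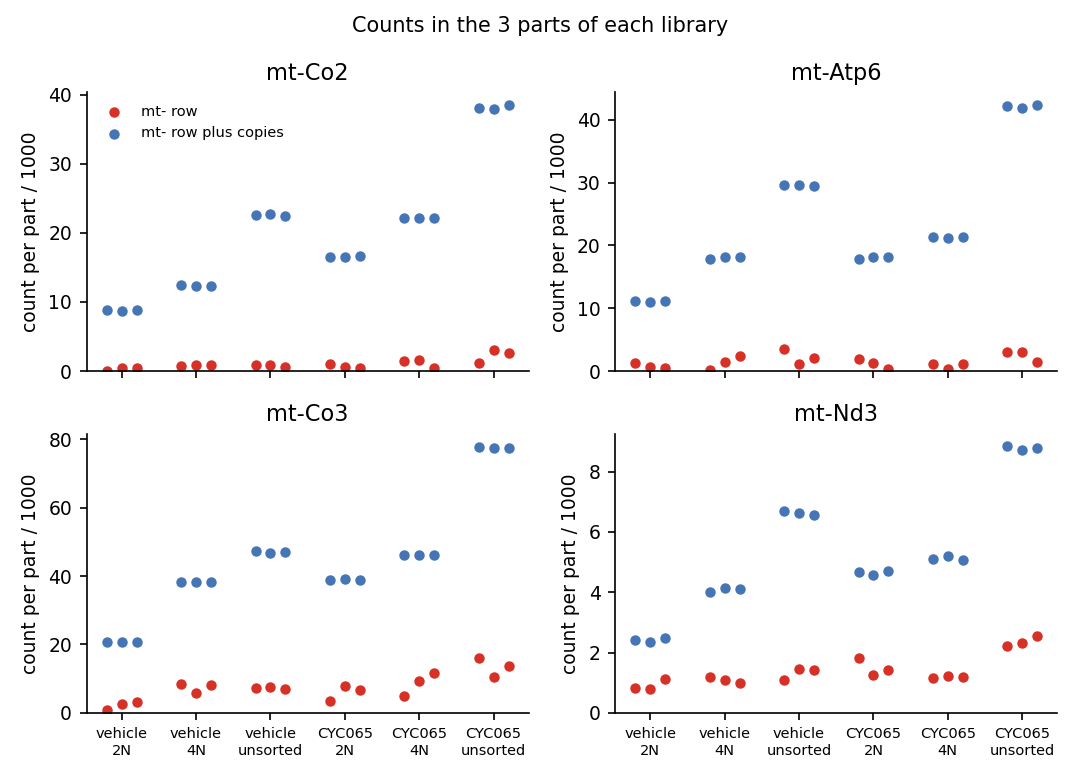
Counts in each of the 3 parts (points) of each library for *mt-Co2*, *mt-Atp6*, *mt-Co3* and *mt-Nd3*, as the mitochondrial row alone (red) and as the sum of the row and its nuclear copies (blue). The blue points of a library lie together, with a range of 5.3% of their mean at most (*mt-Nd3*), while the red points spread.

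Over all 7 genes, the sum of gene and copies varied between the parts of a library by at most 5.73% of its mean (*mt-Nd4l*), and by at most 1.82% for *mt-Atp6*, 1.49% for *mt-Co2*, 1.17% for *mt-Co1* and 1.04% for *mt-Co3*. The chi-square value for each degree of freedom, which is near 1 for sampling noise, lay between 104.8 and 278.7 over the fractional mitochondrial rows and between 0.479 and 1.33 over the mitochondrial rows with whole counts. Over all genes of the table it lay between 0.991 and 1.02 for whole counts. Values are therefore given below for the gene together with its copies where it has any, and for the row as deposited where the difference bears on a ratio. Reads from the copies themselves cannot be told apart from those of the genes where the sequences are identical.

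The 13 protein-coding rows held 0.324% (95% exact binomial interval 0.322 to 0.325, counting error only) of all counts in vehicle 2N cells. They held 0.566% in vehicle 4N, 0.979% in vehicle unsorted, 0.592% in CYC065 2N, 0.712% in CYC065 4N and 1.62% in CYC065 unsorted cells. With the nuclear copies added, the shares were 0.538%, 0.898%, 1.49%, 0.998%, 1.14% and 2.44% in the same order. The SD of the rows' share over the 3 parts did not exceed 0.0143 percentage points (CYC065 4N), which is less than any gap between 2 libraries. The order of the libraries was the same with and without the copies. Vehicle 2N cells were lowest and CYC065-treated unsorted cells highest, and within each treatment the order was 2N, 4N, unsorted.

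**Figure D2:**
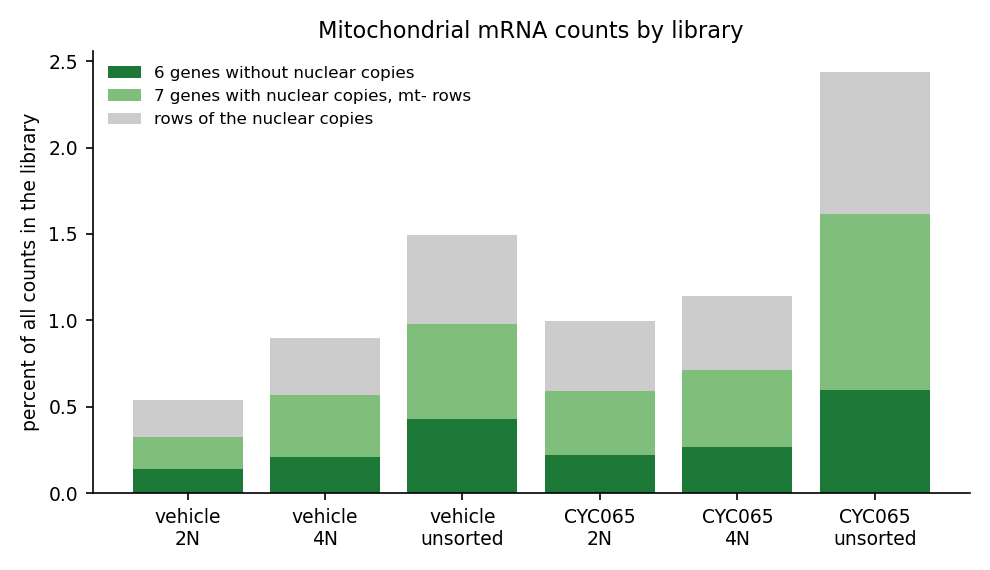
Percent of all counts of a library (vertical axis) in the 6 genes without nuclear copies, in the mitochondrial rows of the 7 genes with copies, and in the rows of the copies, stacked for the 6 libraries. The stacked total runs from 0.538% in vehicle 2N to 2.44% in CYC065 unsorted cells.

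The 2 rows *Gm26917* and *Gm42418*, which overlap ribosomal RNA sequence and are a measure of the rRNA left after depletion, held 2.62%, 1.68%, 8.74%, 7.21%, 6.53% and 12.0% of counts in the same library order. They were thus also higher in unsorted cells and after CYC065, although not in 4N versus 2N cells. Leaving these rows and both mitochondrial rRNAs out of the total gave mitochondrial mRNA shares of 0.333%, 0.576%, 1.07%, 0.638%, 0.763% and 1.84%, in the same order of libraries. Any other part of leftover rRNA in the differences between libraries was not tested.

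The genes of complex I, which takes electrons from NADH, are described first. Levels are given in CPM in the order vehicle 2N, vehicle 4N, vehicle unsorted, CYC065 2N, CYC065 4N and CYC065 unsorted. *mt-Nd1* was at 469.9, 726, 1429.9, 783, 982 and 1962 CPM. *mt-Nd2* was at 168, 244, 613, 281, 334 and 829 CPM. For both, levels stood in the order 2N, 4N, unsorted within each treatment, and the parts of neighbouring libraries did not overlap. With its copy, *mt-Nd3* was at 126, 203, 341, 245, 231 and 491 CPM, and its row alone at 47.9 to 132 CPM. With its copy, *mt-Nd4l* was at 59.6, 85.9, 199, 95.8, 106 and 321 CPM, and its row alone at 19.3 to 80.3 CPM. *mt-Nd4*, which shares 7 bases and a transcript with *mt-Nd4l*, was at 291, 474, 1063, 452, 522 and 1832 CPM with its copy. In *mt-Nd3* the 4N library lay below the 2N library after CYC065, unlike in *mt-Nd4* and *mt-Nd4l*. *mt-Nd5* was at 221, 361, 957, 352, 399 and 1555 CPM.

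*mt-Nd6*, also of complex I, is the only mRNA on the opposite strand (ENSMUSG00000064368.1, chrM:13552-14070, minus strand), and its start is shown for that reason.
mt-Nd6: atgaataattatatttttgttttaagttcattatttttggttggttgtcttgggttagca
It was at 9.68, 11.1, 56.0, 11.0, 12.1 and 77.5 CPM. The 4 sorted libraries thus lay within 9.68 to 12.1 CPM, and both unsorted libraries stood well apart above them. *mt-Nd6* overlaps *mt-Nd5* by 14 bases. The library kit marks strand, but the strand setting of the counting is not given in the sources used here, so RNA of the opposite strand across *mt-Nd6* may or may not be in its count.

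The gene of complex III, *mt-Cytb*, which encodes cytochrome b, was at 456, 694, 1135, 595, 671 and 1823 CPM. Complex IV, cytochrome c oxidase, passes electrons to oxygen, and its largest subunit gene *mt-Co1* was at 1439.8 CPM with copies in vehicle 2N cells, then at 2647, 4011, 2821, 3369 and 8590.1 CPM. For both genes, vehicle 2N cells were lowest and CYC065 unsorted cells highest. With its copies, *mt-Co2* was at 459.8, 612, 1159.8, 874, 996 and 2131 CPM, and its row alone at 14.1 to 127 CPM. With its copy, *mt-Co3* was at 1080.0, 1899, 2422, 2056, 2075 and 4332 CPM, and its row alone at 111 to 749 CPM. In *mt-Cytb*, CYC065 4N lay just below vehicle 4N, and in *mt-Co3* the 2N and 4N libraries after CYC065 overlapped over their parts. For all 3 cytochrome c oxidase genes, CYC065 unsorted was highest.

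The ATP synthase genes *mt-Atp8* and *mt-Atp6* are read from 1 transcript in different frames. The 43 bases that both use (chrM:7927-7969, plus strand) are shown with the start codon of *mt-Atp6* in capitals, and a read that lies within them could belong to either.
Shared by mt-Atp8 and mt-Atp6: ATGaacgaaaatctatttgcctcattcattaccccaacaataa
*mt-Atp8* was at 56.8, 74.2, 164, 102, 97.5 and 260.0 CPM. With its copy, *mt-Atp6* was at 577, 897, 1522, 953, 958 and 2355 CPM, and its row alone at 38.6 to 140.4 CPM. *mt-Atp8* has no copy that shares 20% of its words, and its order of libraries was that of *mt-Atp6* with copies apart from the 2N and 4N libraries after CYC065.

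Divided by gene length, the levels kept nearly the same order of genes in every library. On the scale of CPM per kilobase with copies, *mt-Co3* and *mt-Co1* took the first and second places, *mt-Atp6* and *mt-Co2* the next, and *mt-Nd1* followed these 4 in all 6 libraries. *mt-Nd6* was last in all 6, at 18.6 CPM per kilobase in vehicle 2N cells against 1378 for *mt-Co3*. As rows alone, *mt-Co2* stood at 20.6 CPM per kilobase in the same library, next to *mt-Nd6*, against 672 with its copies.

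CYC065 was compared with vehicle in each population. Cells were sorted after treatment, so the 2N and 4N comparisons set sorted populations against each other and do not follow the same cells. In 2N cells all 13 protein-coding genes were higher after CYC065, with log2 ratios with copies from 0.18 (*mt-Nd6*, SE 0.09) to 0.97 (*mt-Co1*, SE 0.01) and a median of 0.74. The median over the 14083 genes kept was 0.00445. The parts of all 13 genes lay above those of vehicle 2N cells. With copies, 0 of 13 genes were beyond 2-fold, and as rows 2 were, *mt-Co3* (1.51, SE 0.78) and *mt-Co2* (1.35, SE 3.24). Over all genes kept, 16.2% were higher and 11.5% lower by more than 2-fold in this comparison, so the 2 rows stood for a share near that background. Added to their copies, *mt-Co3* had a ratio of 0.93 (SE 0.01) and *mt-Co2* of 0.93 (SE 0.01). The other complex IV gene, *mt-Co1*, was 1.96-fold higher with copies. The genes without copies ran from *mt-Nd6* over *mt-Cytb* (0.38, SE 0.01) and *mt-Nd5* (0.67, SE 0.02) to *mt-Nd1* (0.74, SE 0.01), *mt-Nd2* (0.74, SE 0.02) and *mt-Atp8* (0.85, SE 0.04).

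In 4N cells the ratios of CYC065 to vehicle were closer to 0. With copies, 12 of 13 genes were higher, with a median log2 ratio of 0.19 against 0.03 over all 14177 genes kept, and 0 of 13 were beyond 2-fold where 15.5% of all genes were higher and 10.1% lower. The highest ratios were those of *mt-Co2* with copies (0.70, SE 0.01), *mt-Nd2* (0.46, SE 0.02) and *mt-Nd1* (0.44, SE 0.02), and *mt-Atp8* was at 0.39 (SE 0.03). *mt-Atp6* and *mt-Co3* with copies stood at 0.10 (SE 0.01) and 0.13 (SE 0.01). *mt-Cytb* was at −0.05 (SE 0.02), and its direction was the opposite with scaling to library totals alone (0.03). The rows of *mt-Atp6* (−0.79, SE 1.22) and *mt-Nd3* (−0.02, SE 0.08) pointed down where gene and copy together pointed up.

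In unsorted cells all 13 genes were higher after CYC065, with a median log2 ratio of 0.68 with copies against −0.01 over all 14076 genes kept. *mt-Co1* with copies was the only gene beyond 2-fold (1.10, SE 0.01), where 12.6% of all genes were higher and 12.6% lower. *mt-Co2* (0.88, SE 0.01), *mt-Co3* (0.84, SE 0.005) and *mt-Nd4* (0.79, SE 0.01) with copies came next. The lowest ratios were those of *mt-Nd2* (0.44, SE 0.01), *mt-Nd1* (0.46, SE 0.01) and *mt-Nd6* (0.47, SE 0.03). As rows, *mt-Co1* (1.07) and *mt-Co2* (1.65, SE 0.47) were beyond 2-fold and *mt-Co3* was at the limit (1.00, SE 0.18). Scaling to library totals alone lowered every ratio of this comparison by 0.108 on the log2 scale. The row of *mt-Co1* was then at 0.96, and *mt-Co1* with copies also fell short of 2-fold.

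**Figure D3:**
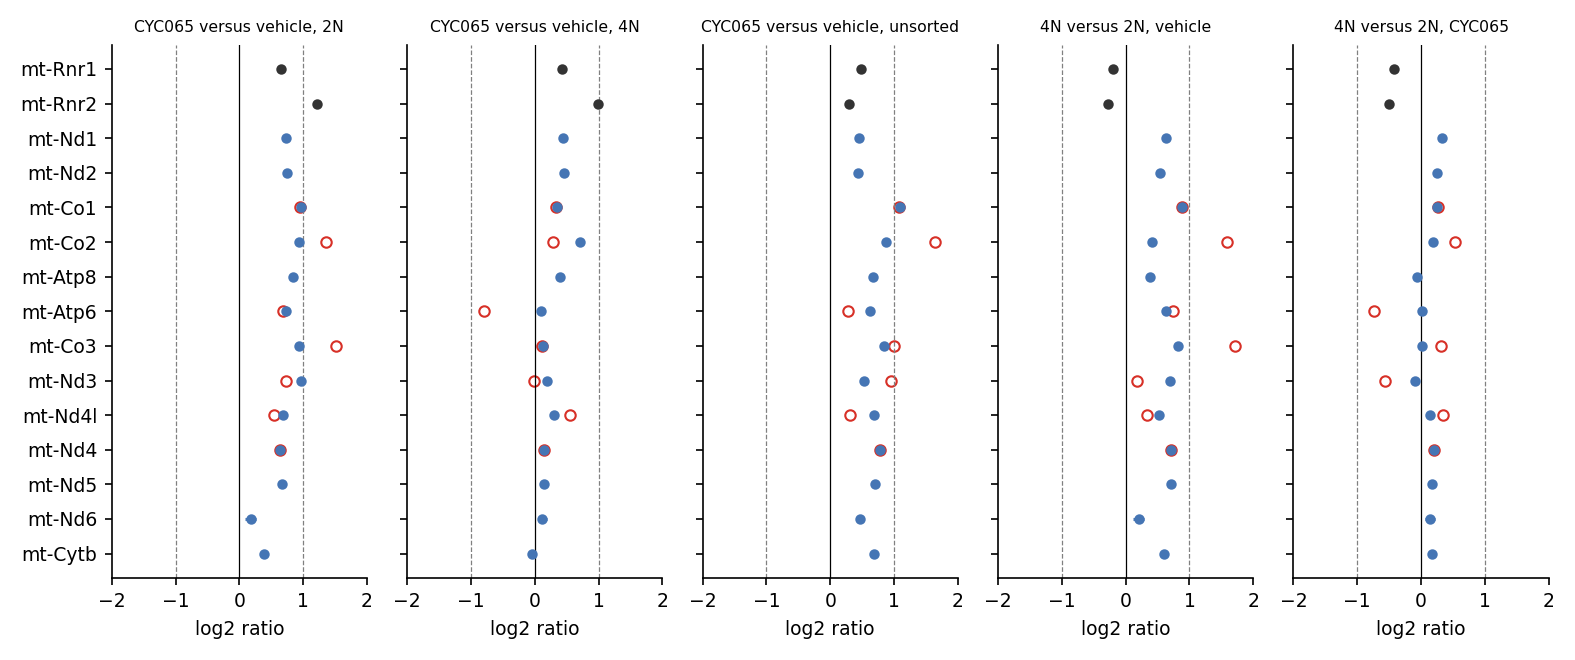
Log2 ratios of the 2 rRNA (black) and 13 protein-coding genes (blue, with nuclear copies, bars are SE and often smaller than the point) in 5 comparisons, with open red circles for the rows as deposited of the 7 genes with copies and dashed lines at 2-fold. The blue points lie right of 0 in 4N versus 2N cells under vehicle and nearer to 0 after CYC065, while both rRNAs lie left of 0 in the last 2 panels.

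The comparison of 4N with 2N cells asks how the populations sorted at 4N and 2N DNA content differ within a treatment. Under vehicle all 13 genes were higher in 4N cells, with log2 ratios with copies from 0.20 (*mt-Nd6*, SE 0.09) to 0.88 (*mt-Co1*, SE 0.01) and a median of 0.63, against 0.000368 over all 13358 genes kept. With copies, 0 of 13 genes were beyond 2-fold. As rows, *mt-Co3* (1.72, SE 0.70) and *mt-Co2* (1.59, SE 3.22) were, where 0.981% of all genes were higher and 1.69% lower by more than 2-fold. Both of these calls are absent once the copies are added, which gave 0.81 (SE 0.01) for *mt-Co3* and 0.41 (SE 0.02) for *mt-Co2*. The other genes with copies were *mt-Nd4* at 0.70 (SE 0.01), *mt-Nd3* at 0.69 (SE 0.02), *mt-Atp6* at 0.64 (SE 0.01) and *mt-Nd4l* at 0.53 (SE 0.03). Of the genes without copies, *mt-Nd5* (0.70, SE 0.02), *mt-Nd1* (0.63, SE 0.01), *mt-Cytb* (0.61, SE 0.01) and *mt-Nd2* (0.53, SE 0.02) were above *mt-Atp8* (0.38, SE 0.04).

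After CYC065, 11 of 13 genes with copies were higher in 4N cells, by less. Their median log2 ratio was 0.17 against 0.00156 over all 14173 genes kept, 0 of 13 were beyond 2-fold, and 1.47% of all genes were higher and 2.07% lower. The highest were *mt-Nd1* (0.33, SE 0.01), *mt-Co1* with copies (0.26, SE 0.01) and *mt-Nd2* (0.25, SE 0.02). *mt-Nd3* with its copy was at −0.09 (SE 0.02) and *mt-Atp8* at −0.07 (SE 0.03), while *mt-Co3* and *mt-Atp6* with copies both stood at 0.01 (SE 0.01). DESeq2 size factors shift every ratio of this comparison by −0.01, which turns the direction of *mt-Atp6* but not that of *mt-Co3*.

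The difference between the 4N/2N log2 ratios, CYC065 minus vehicle, was negative for all 13 genes with copies and ran from −0.80 (*mt-Co3*, SE 0.01) to −0.06 (*mt-Nd6*, SE 0.12). Its median was −0.45, against 0.00729 over all 14474 genes kept in the 4 sorted libraries, of which 49.1% were negative. *mt-Nd3* (−0.78, SE 0.03), *mt-Atp6* (−0.63, SE 0.02) and *mt-Co1* (−0.62, SE 0.02) with copies followed *mt-Co3*. It was smallest in size, after *mt-Nd6*, for *mt-Co2* with copies (−0.22, SE 0.02), *mt-Nd2* (−0.28, SE 0.03) and *mt-Nd1* (−0.30, SE 0.02). As rows, *mt-Nd4l* had the opposite sign (0.01, SE 0.29) and 12 of 13 genes were negative. The difference rests on 4 single libraries and was not tested.

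Unsorted cells had more mitochondrial mRNA than either sorted population of the same treatment, a comparison chosen after the levels had been seen. Under vehicle all 13 genes with copies were higher by more than 2-fold than in 2N cells, with a median log2 ratio of 1.53, where 7.37% of all genes were higher and 3.18% lower. Against vehicle 4N cells 6 of 13 were, with a median of 0.98, where 8.87% were higher and 3.5% lower. After CYC065 all 13 were beyond 2-fold against 2N cells (median 1.56), where 3.17% were higher and 3.58% lower, and 12 of 13 against 4N cells (median 1.35), where 4.83% were higher and 4.03% lower. Scaling to library totals alone lowered the ratios after CYC065 by 0.177 against 2N and 0.209 against 4N cells and left 11 of 13 genes beyond 2-fold against 2N cells (not *mt-Co3* and *mt-Nd3*) and 9 of 13 against 4N cells (not *mt-Nd1*, *mt-Co2*, *mt-Co3* and *mt-Nd3*). TMM set apart for sorted and unsorted libraries gave 11 of 13 in both. Its factors were set within each group without a common reference, so it cannot check ratios between the groups. TMM without the mitochondrial rows left 12 against 2N cells (not *mt-Nd3*). The counts under vehicle stayed at 13 and 6 under each scaling and filter run. The one gene short of 2-fold in the comparison with CYC065 4N cells was *mt-Nd1*, at 1.00 (SE 0.01) and 0.9984 before rounding. The medians over all genes kept lay between −0.02 and −0.006 in these 4 comparisons. The samples called unsorted here are labelled as all cells, and the study's methods do not describe their handling. Differences in handling and in the choice of cells cannot be told apart here.

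Genes differed in how far they stood above 2N cells. *mt-Nd6* had the highest ratio in both treatments, at 2.53 (SE 0.08) under vehicle and 2.82 (SE 0.06) after CYC065, or 5.78-fold and 7.06-fold. Next came *mt-Nd5* (2.11 under vehicle and 2.14 after CYC065) and *mt-Nd4* with its copy (1.87 and 2.02), each with an SE of 0.01. The lowest ratio was that of *mt-Co3* under vehicle (1.17, SE 0.01, and 1.07 after CYC065) and that of *mt-Nd3* after CYC065 (1.00, SE 0.02, and 1.44 under vehicle), with copies in both cases. TMM set apart for sorted and unsorted libraries lowered the ratios of unsorted versus 2N cells under vehicle by 0.125, but it has no common reference for this comparison.

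**Figure D4:**
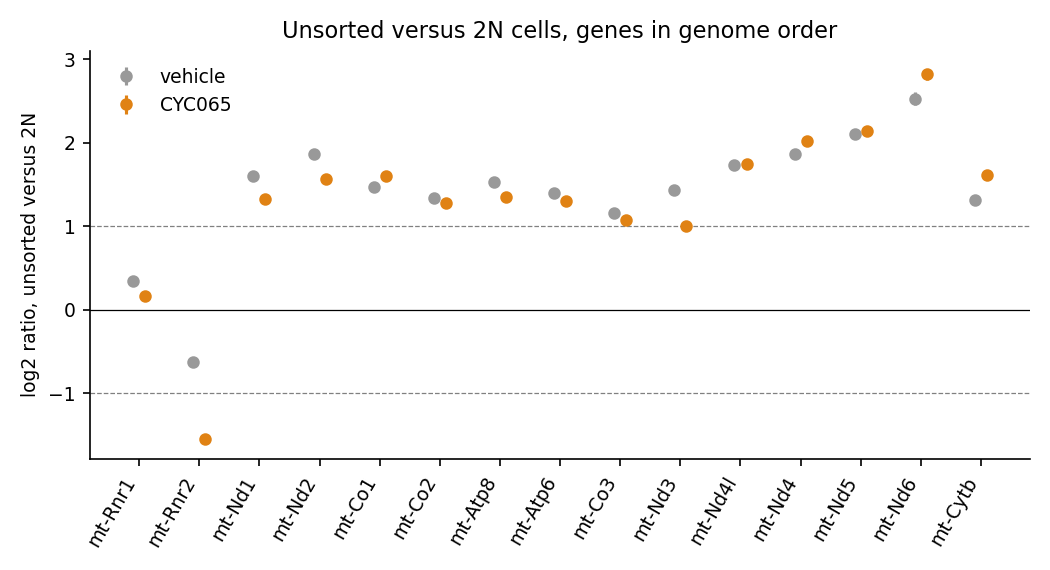
Log2 ratios of unsorted versus 2N cells (vertical axis) under vehicle (gray) and after CYC065 (orange) for the 2 rRNA and 13 protein-coding genes in genome order, with nuclear copies added and dashed lines at 2-fold. All 13 mRNAs lie at or above the upper dashed line, though *mt-Nd3* and *mt-Co3* after CYC065 do not with scaling to library totals, and *mt-Nd6* is highest, while *mt-Rnr2* lies below 0 in both treatments.

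The same pattern stood in the makeup of the mitochondrial mRNA pool, which does not depend on scaling to nuclear genes. With copies, *mt-Nd6* made up 0.372% of the pool in vehicle unsorted and 0.292% in CYC065 unsorted cells, against 0.113% to 0.179% in the 4 sorted libraries. *mt-Nd5* made up 6.35% and 5.85% of the pool in unsorted cells and 3.66% to 4.09% in sorted cells. *mt-Nd4* made up 7.05% and 6.90% against 4.69% to 5.37%. *mt-Co3* went the other way, with 16.1% and 16.3% in unsorted and 19.3% to 21.4% in sorted cells. For these 4 genes the 2 unsorted libraries did not overlap with the 4 sorted ones. *mt-Co1* with copies, the largest component, made up 26.6% of the pool in vehicle 2N, 29.6% in vehicle 4N and 26.6% in vehicle unsorted cells, and 29.3%, 31.3% and 32.3% after CYC065. Its share was thus higher after CYC065 than under vehicle in each of the 3 populations. *mt-Cytb* was lower in each, with 8.42%, 7.78% and 7.53% under vehicle and 6.18%, 6.25% and 6.86% after CYC065.

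The mitochondrial rRNAs, *mt-Rnr1* of the small and *mt-Rnr2* of the large mitochondrial ribosomal subunit, did not follow the mRNAs in all comparisons. *mt-Rnr1* was at 340.2, 295, 433, 534, 396 and 602 CPM in the library order given above. *mt-Rnr2* was at 223, 184, 144, 518, 367 and 178 CPM. *mt-Rnr2* was thus lowest in the unsorted library within each treatment, where the mRNAs were highest. The ratio of CYC065 to vehicle for *mt-Rnr2* was 1.22 (SE 0.02) in 2N, 0.99 (SE 0.03) in 4N and 0.30 (SE 0.02) in unsorted cells, and that for *mt-Rnr1* was 0.65 (SE 0.01), 0.43 (SE 0.01) and 0.48 (SE 0.01). In 4N cells *mt-Rnr2* passed 2-fold under library totals (1.07). In 4N versus 2N cells both were lower, *mt-Rnr1* at −0.21 (SE 0.01) under vehicle and −0.43 (SE 0.01) after CYC065, and *mt-Rnr2* at −0.28 (SE 0.03) and −0.50 (SE 0.01). In unsorted versus 2N cells *mt-Rnr2* was at −0.63 (SE 0.02) under vehicle and −1.54 (SE 0.02) after CYC065, and *mt-Rnr1* was at 0.35 (SE 0.01) and 0.17 (SE 0.01). The authors depleted rRNA before library preparation, and these levels are what was left, so they do not measure the rRNA content of the cells. The 2 rows of *mt-Rnr1* and *mt-Rnr2* held between 0.0482% (vehicle 4N) and 0.109% (CYC065 2N) of counts.

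The 22 tRNA genes were not measurable. They are 59 to 75 bases long and had 6 counts in all over the 6 libraries, from *mt-Tm* (3 counts), *mt-Tv* (2) and *mt-Tl1* (1), and the other 19 had 0. All 22 were under the minimum of 30 counts, and 15 of the 37 members passed it.

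Nuclear genes that act on these transcripts were set beside them. Of 17 genes of mitochondrial transcription and its control, 2 were higher and 1 lower by more than 2-fold after CYC065 in 2N cells (median log2 ratio −0.15), 2 and 1 in 4N cells (median −0.16) and 1 and 1 in unsorted cells (median −0.28). Beside these counts, the shares of all genes higher and lower by more than 2-fold were 16.2% and 11.5% in 2N, 15.5% and 10.1% in 4N, and 12.6% and 12.6% in unsorted cells, so the list was near or below background in both directions. *Ppargc1a*, a coactivator of genes for mitochondrial biogenesis, was at 2.03, 3.01, 9.22, 12.4, 15.2 and 34.4 CPM in the library order given above. Its ratio of CYC065 to vehicle was 2.60 (SE 0.14) in 2N, 2.33 (SE 0.12) in 4N and 1.90 (SE 0.07) in unsorted cells, and it was the only gene of the list beyond 2-fold in unsorted versus 2N cells (2.18 under vehicle and 1.48 after CYC065). The order of its levels was that of the mitochondrial mRNA share apart from the vehicle unsorted library. This was not particular to *Ppargc1a* among the rows of the list. The row of *Mterf1a*, at 2.26, 2.90, 3.93, 3.68, 4.07 and 4.85 CPM, had that order with the same exception. Its counts are fractional and add to whole numbers with those of *Mterf1b* in every library. The row of *Mterf1b*, at 1.25, 1.39, 2.21, 2.99, 3.16 and 2.33 CPM, did not have that order. No value was computed for both rows together. A link of *Ppargc1a* or *Mterf1a* to the mitochondrial mRNA level was not tested. *Pprc1*, a coactivator related to *Ppargc1a*, was lower after CYC065 in 2N (−1.25, SE 0.03) and unsorted cells (−1.10, SE 0.03), and at −0.87 in 4N cells. As a row alone, *Mterf1b*, a termination factor gene with fractional counts, was at 1.25 (SE 0.20) in 2N and 1.19 (SE 0.19) in 4N cells. It was 1 of the 2 genes of the list counted as higher there. The SE does not cover the division of reads between *Mterf1b* and *Mterf1a*.

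The mitochondrial RNA polymerase gene *Polrmt* was at −0.15 (SE 0.06), 0.13 (SE 0.05) and −0.23 (SE 0.05) in 2N, 4N and unsorted cells after CYC065. *Tfam*, whose product packages mitochondrial DNA and starts transcription, was at −0.52 (SE 0.05), −0.35 (SE 0.05) and −0.54 (SE 0.06). *Tefm*, an elongation factor gene, was at −0.86 (SE 0.12), −1.01 (SE 0.11) and −0.83 (SE 0.13), just beyond 2-fold in 4N cells. Scaling to library totals alone raised every ratio of CYC065 to vehicle in 4N cells by 0.0771, which left *Tefm* short of 2-fold.

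Of 31 genes of mitochondrial RNA processing and decay, 1 was higher and 6 lower by more than 2-fold after CYC065 in 2N cells (median −0.45), 1 and 6 in 4N cells (median −0.48) and 0 and 5 in unsorted cells (median −0.43). Among all genes, 11.5%, 10.1% and 12.6% were lower by more than 2-fold in 2N, 4N and unsorted cells, and 16.2%, 15.5% and 12.6% higher. The lower genes were *Pde12*, which removes poly(A) tails (−1.30, −1.26 and −1.29), *Gtpbp3* (−1.35, −1.17 and −1.19), *Trmu* (−1.26, −1.32 and −0.39) and *Pus1* (−1.06, −1.07 and −1.07), which modify tRNAs, *Mrm3*, which methylates rRNA (−1.25, −1.17 and −1.92), and *Fastkd1* (−1.19, −1.33 and −1.39), each with an SE of 0.14 or less. The gene beyond 2-fold in the other direction was *Nsun3*, a tRNA methyltransferase gene (1.34, 1.14 and 0.69). The mRNA-stabilizing partners *Lrpprc* and *Slirp* were at −0.89, −0.62 and −0.66, and at −0.36, −0.65 and −0.69, in 2N, 4N and unsorted cells.

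Of 12 genes of mitochondrial genome maintenance, 0 were higher and 1, 2 and 1 were lower by more than 2-fold in 2N, 4N and unsorted cells, with medians of −0.28, −0.25 and −0.49. The lower share of all genes was 11.5%, 10.1% and 12.6%, which a count of 1 or 2 in 12 does not set apart. The genes lower were the exonuclease gene *Mgme1* (−1.76, −1.52 and −1.65) and, in 4N cells, *Rrm2b*, a ribonucleotide reductase subunit gene (−1.07, SE 0.06). With scaling to library totals alone, *Rrm2b* fell short of 2-fold in 4N cells, as did *Pus1* of the processing list. The helicase gene *Twnk* was at −0.35, −0.51 and −0.66. The 75 nuclear-encoded respiratory chain subunits, which include those of complex II, had medians of −0.14, −0.13 and −0.19 after CYC065. Of them, 0 were higher and 1, 2 and 0 lower by more than 2-fold, where 16.2%, 15.5% and 12.6% of all genes were higher and 11.5%, 10.1% and 12.6% lower. The mitochondrially encoded subunits had medians of 0.74, 0.19 and 0.68 with copies in these comparisons. In 4N versus 2N cells under vehicle the nuclear-encoded subunits had a median of 0.03 with 0 beyond 2-fold, against 0.63 for the mitochondrially encoded ones, and in unsorted versus 2N cells −0.04 against 1.53.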

How the data were processed

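The authors removed rRNA with probes before they built strand-marking libraries, which were read from both ends of each fragment. Per the submitters' processing notes, bcl2fastq 2.17, cutadapt 1.18, STAR 2.7.0f, RSEM 1.3.1 and mm10 were used, and the study's methods name GENCODE M21. The deposited values are RSEM expected counts per gene, as estimated by the authors without normalization or filtering, in 18 columns. Columns were assigned to the 6 conditions by their labels, and the 3 of a condition were summed.

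TMM factors came from edgeR 4.0.16 over the 6 summed libraries, in R 4.3.3, and ratios were computed with pandas 2.3.3 and NumPy 2.4.6 in Python 3.11.15. Copies were genes outside the mitochondrial genome that share at least 20% of a member's words of 50 bases, searched on either strand in the GENCODE M21 transcripts and aligned with Biopython 1.88. The precision of whole counts is set by depth, at 54750203 to 62795507 counts per library. For the fractional mitochondrial rows, the error over the parts also holds the division of reads between gene and copy. No error covers differences between cultures. Alternatives were other scalings, filters and pseudocounts, each part left out, and edgeR and DESeq2 1.42.0 on the parts, with counts rounded to whole numbers. Calculations were tested on simulated data.

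All mRNA and rRNA members were named. Nuclear genes were named if they act on the mitochondrial genome and were in a short core list, or were beyond 2-fold at 100 or more counts in 1 of the libraries compared. *Mterf1a* was named for its order of levels. Members and lists were chosen with earlier results of these data known. Of the nuclear-encoded subunits, only counts and medians were given.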

Additional observations from a re-analysis of the deposited data

Results flagged for a closer look

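The 4N/2N ratio of *mt-Atp8* lay on opposite sides of 0 in the 2 treatments. The 3 parts of the 4N library lay above those of the 2N library under vehicle (log2 ratio 0.38, SE 0.04) and below them after CYC065 (−0.07, SE 0.03), which gave a difference, CYC065 minus vehicle, of −0.4528 (SE 0.05). Each side is a comparison of single libraries, and the difference was not tested. *mt-Atp8* has whole counts and no nuclear copy that shares 20% of its sequence words.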

How the results depend on the processing

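No gene-level or summary value for CYC065 versus vehicle or 4N versus 2N cells that was beyond 2-fold changed direction under the alternatives run. Values below are for the 13 rows as deposited and counts are out of the 15 mRNA and rRNA rows. The deposited rows gave median log2 ratios of CYC065 to vehicle of 0.73 (2N), 0.14 (4N) and 0.68 (unsorted), and of 0.63 and 0.21 for 4N versus 2N cells under vehicle and after CYC065, with 3, 0, 2, 2 and 0 rows beyond 2-fold. Scaling to library totals alone gave medians of 0.7878, 0.5752 and 0.2411 (2N, unsorted, and 4N versus 2N after CYC065), with 1 row beyond 2-fold in 4N and 1 in unsorted cells. DESeq2 size factors gave 0.702 in unsorted cells and −0.5314 for the change of the 4N/2N ratio with treatment, which was −0.50 in the main analysis. In 2N and unsorted cells, TMM without the mitochondrial rows gave 0.7135 and 0.667, TMM set apart for sorted and unsorted libraries 0.6929 and 0.6936, no filter 0.6498 and 0.6237, and a minimum of 100 counts 0.7619 and 0.726, the last with 1 row beyond 2-fold in 4N and 4 in unsorted cells. A pseudocount of 2 moved none of these. In 4N cells, the ratios near 0 of *mt-Cytb* (−0.05) and of the row of *mt-Nd3* (−0.02) became 0.03 and 0.06 under library totals.

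With the copies summed, 1 row in 2N (*mt-Rnr2*), 1 in unsorted and 0 in 4N versus 2N vehicle cells were beyond 2-fold, the median after CYC065 in 4N versus 2N was 0.1748 and the change of the 4N/2N ratio −0.4528. In the order vehicle 2N, 4N, unsorted and CYC065 2N, 4N, unsorted, the mRNA share was then 0.5384%, 0.8979%, 1.491%, 0.9983%, 1.141% and 2.438%, and *mt-Co1* made up 26.59%, 29.65%, 26.61%, 29.32%, 31.33% and 32.34% of the pool, against 41.5%, 44.3%, 38.6%, 45.7%, 46.6% and 45.6% as rows. With rRNA left out of the total, the share of the rows was 0.3326%, 0.5758%, 1.074%, 0.6383%, 0.7627% and 1.836%. The 6 genes without copies, an alternative chosen after seeing the data, had medians of 0.7036 (2N), 0.269 (4N) and 0.5677 (unsorted) for CYC065 against vehicle, of 0.5707 and 0.1767 for 4N versus 2N cells, and of −0.3666 for the change of that ratio.

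Leaving out each part in turn gave medians of 0.6769 to 0.7416 in 2N, 0.6673 to 0.6898 in unsorted and 0.1758 to 0.2011 in 4N versus 2N cells after CYC065, −0.4940 to −0.4383 for the change of the 4N/2N ratio, and 0 to 2 rows beyond 2-fold in 4N, 2 to 4 in unsorted and 0 to 1 in 4N versus 2N cells after CYC065. The 2 in 4N cells came without part 1, the 4 in unsorted cells without part 2 and the 1 without part 3.

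Tests on the parts compare libraries, not conditions. edgeR without and with the replicate block called 3, 1, 3, 2 and 0 rows in the 5 comparisons (adjusted p below 0.05 and beyond 2-fold), 1 in 4N cells in both fits, and DESeq2 called 2, 0, 2, 1 and 0, with 1 in 4N versus 2N vehicle cells. The replicate numbers do not pair the samples: deviations of same-numbered parts correlated at −0.563 to 0.395 and those of different numbers at −0.387 to 0.594. The cause of these changes was not tested. Depth limits the tRNAs (6 counts) and *mt-Nd6* in sorted cells, and the division of reads between gene and copy limits the rows of *mt-Co2*, *mt-Atp6*, *mt-Co3*, *mt-Nd3* and *mt-Nd4l*.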
